A study of Homo sapiens with 16 samples.

Results

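Proteasome subunit genes were examined in MOLM13 after CRISPR-Cas9 targeting of YBX1, the gene of an RNA-binding protein with a cold-shock domain. MOLM13 is a human cell line from acute myeloid leukemia (AML) that carries a fusion of the KMT2A gene. The genes were chosen by symbol (PSMA, PSMB, PSMC or PSMD followed by a number) among those listed in the authors' table for total RNA. Their identifier also had to be in the count table. No fold change or p-value entered this rule, and 37 of the 18991 genes in the count table met it. They comprised 8 core alpha, 9 core beta, 6 ATPase and 14 non-ATPase genes. All cells, controls included, carried a stable Cas9 transgene and were selected with Blasticidine and Puromycine. The sgYBX1 cells held 1 guide that targets YBX1 and the sgLUC cells a non-targeting one, each in a lentiviral vector with RFP, and both were lysed at day 14. Polysomal RNA came from the heavy part of a sucrose gradient, where mRNAs carry several ribosomes, and total RNA from unfractionated lysates. Cycloheximide was added to the cells before lysis for fractionation. The 4 groups, polysomal sgYBX1, polysomal sgLUC, total sgYBX1 and total sgLUC, held 4 replicates each, and the 16 poly(A)-selected libraries had 38326270 to 66164414 counts. A single guide in 1 cell line was sequenced, and no protein was measured here.

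The 26S proteasome degrades ubiquitin-tagged proteins. Its 20S core is a barrel of alpha rings, which gate the entry, and beta rings, which hold the proteolytic sites. The 19S cap has a base, in which the PSMC ATPases unfold the substrate, and a lid, which removes ubiquitin. Each subunit enters the assembled particle in a fixed ratio. In mammalian cells the transcription factor NFE2L1 raises the proteasome genes together when the proteasome is inhibited, and proteasome inhibitors such as bortezomib are used against blood cancers.

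YBX1 mRNA was examined first, as the check of the guide. Its level was 644, 665, 647 and 623 CPM (counts scaled to a common library size, here with the TMM factors of edgeR) in polysomal sgYBX1 libraries, against 966, 909, 802 and 823 CPM in polysomal sgLUC libraries. In total RNA it was 512, 518, 496 and 551 CPM with sgYBX1, against 898, 873, 865 and 910 CPM with sgLUC. In both fractions the highest sgYBX1 library was below the lowest sgLUC library. A two-sided exact permutation test gave p = 0.0286 for either fraction, which is the smallest value possible with 4 and 4 libraries. Of 7 myeloid markers, 6 were at 5 CPM or more in every library, and CSF1R, the receptor of a macrophage growth factor, ranged from 4.62 to 16.5 CPM. Of 13 markers of other cell types, 10 were under 1 CPM in every library. Among the others were PECAM1, which myeloid cells also express (42.2 to 82.7 CPM), and CD3D, a T cell marker (0.522 to 6.22 CPM). The libraries differed mainly by fraction, since the first principal component of log2 CPM held 95.03% of the variance. On it, polysomal sgLUC replicates 1 and 4 (scores 60.7 and 61.9) lay nearer to the total RNA libraries than the other 6 polysomal libraries (74.9 to 83.8), so polysomal results are also given without these libraries. Replicates varied more in polysomal RNA (biological coefficient of variation 0.149 with sgYBX1 and 0.220 with sgLUC) than in total RNA (0.0378 and 0.0542). Fewer cells of a kind and less RNA per cell cannot be told apart in such bulk libraries.

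Of the 37 genes, 34 passed the filter on low counts in every comparison. PSMA8, the testis form of an alpha subunit, had 2 counts in polysomal sgYBX1 and 6 in polysomal sgLUC libraries and 0 in total RNA. PSMB11, the thymus form of a catalytic beta subunit, had 0 and 6 counts in polysomal sgYBX1 and sgLUC libraries and 0 and 4 in total sgYBX1 and sgLUC libraries. PSMB3, a subunit that every core particle contains, had 18 counts in each polysomal group and 1 and 3 counts in total sgYBX1 and sgLUC libraries. A gene that dividing cells require was thus listed near 0, so no fold is given for it, and the cause was not tested. PSMB8 and PSMB9, the other interferon-inducible beta genes, have symbols of this form but were not matched in the authors' table for total RNA, so they did not meet the rule. They had 0 counts in all 16 libraries. Whether they are silent in MOLM13 or escaped counting was not tested. Of the 34 tested genes, 10 share their name with at least 1 annotated pseudogene. PSMC1 has 13 of these, PSMA6 has 4, PSMA2 and PSMD10 have 3 each, and PSMA3, PSMB7, PSMD4, PSMD7, PSMD8 and PSMD12 have 1 each. The values of these 10 genes are uncertain because reads may fit several copies.

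NFE2L1 and the related factor NFE2L2 bind the antioxidant response element, so the promoters of the subunit genes were searched for it, to be set beside the changes given later. RefSeq promoter windows (GRCh38.p14, 250 bases before to 50 after each start) matched 32 of the 37 genes in 38 windows. A gene with several RefSeq starts can thus have several windows. In the 250 upstream bases, TGACNNNGC on either strand stood in 7 of 38 windows, against 10.9% of 35116 windows of all genes. The tested genes with a match are shown 5′ to 3′ on the strand of the gene, with the 9 motif positions in capitals.
PSMA4 (chr15:78540650-78540678, plus strand): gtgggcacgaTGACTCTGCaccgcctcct
PSMC5 (chr17:63827654-63827682, plus strand): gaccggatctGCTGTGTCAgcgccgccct
PSMD3 (chr17:39980760-39980788, plus strand): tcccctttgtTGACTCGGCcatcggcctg
PSMD5 (chr9:120843038-120843066, minus strand): tggctacagtTGACACGGCcctaacggag
PSMD9 (chr12:121888678-121888706, plus strand): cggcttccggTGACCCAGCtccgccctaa
PSMD12 (chr17:67366724-67366752, minus strand): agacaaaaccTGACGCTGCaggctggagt
PSMD9 held a second match on the other strand.

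The CCAAT box, which NF-Y binds, is known from many housekeeping promoters. CCAAT or its complement ATTGG stood in 16 of 38 windows, against 32% of all windows. It is shown for 4 genes whose polysomal changes are described later, in the same way, with the box in capitals.
PSMA4 (chr15:78540577-78540601, plus strand): ccgctttcccATTGGgcgggggtcg
PSMD7 (chr16:74296606-74296630, plus strand): acggtacaggCCAATaccaggaggt
PSMA5 (chr1:109426488-109426512, minus strand): ctactaccagCCAATaggaagcagg
PSMD6 (chr3:64023672-64023696, minus strand): gattcaagaaATTGGgcttttgagt
A match is a description of the letters and not a bound site.

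Within total RNA the 34 genes lay closer together than on polysomes, where they spread widely. Per kilobase of coding sequence, levels ran from 31.5 (PSMC6) to 208 CPM (PSMA7) in total sgYBX1 RNA and from 31.7 (PSMC6) to 212 CPM (PSMA7) in total sgLUC RNA when PSMC1 was set aside. These ranges correspond to 6.61-fold and 6.69-fold. PSMC1 itself had 8.96 and 9.17 CPM per coding kilobase there, and with it the range was 23.2-fold in either group. In polysomal sgYBX1 RNA the levels ran from 6.46 (PSMB7) to 2373 CPM (PSMA7) per coding kilobase, which is 367-fold, and in polysomal sgLUC RNA from 7.70 (PSMD5) to 2047 CPM (PSMA7), which is 266-fold. A wide spread was general: over all tested genes the log2 fold change of polysomal against total RNA had an SD of 1.82 in sgYBX1 and 1.71 in sgLUC cells, and over the 34 genes 1.76 and 1.54.

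**Figure D1:**
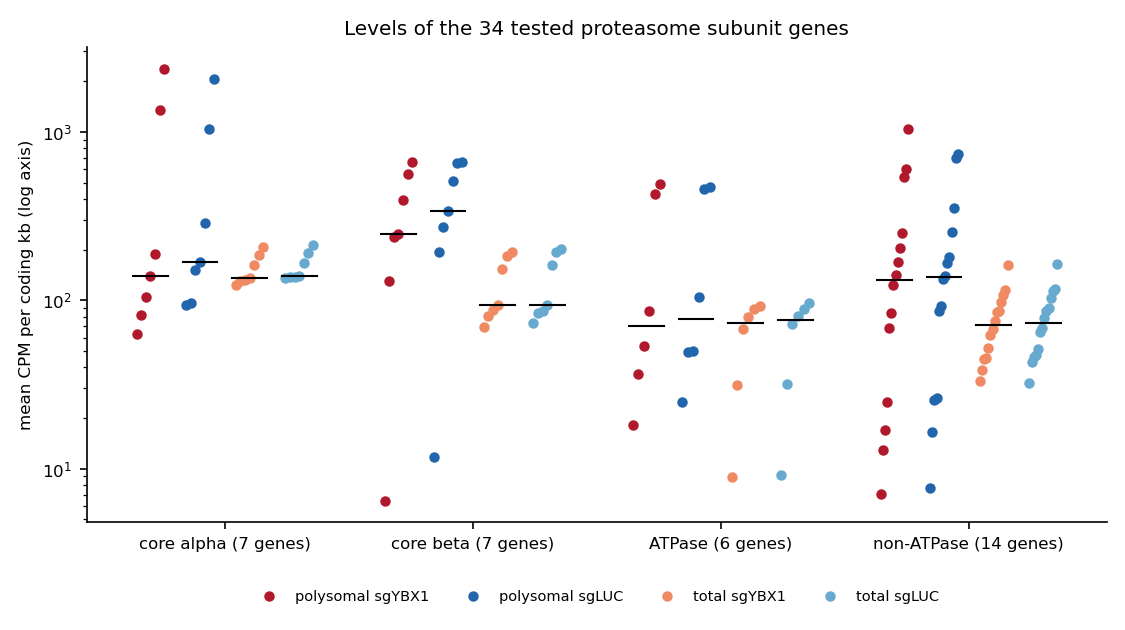
Mean level of each tested proteasome subunit gene, in CPM per kilobase of coding sequence on a log axis, by subunit class and group (34 genes, 4 libraries per group, black lines are class medians). Points of total RNA lie mostly between 31.5 and 212, while points of polysomal RNA run from 6.46 to 2373.

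The comparison of polysomal with total RNA asked how far each mRNA is found in the heavy fractions. The paper names the RNeasy kit for RNA of cultured cells and TRIZOL for polysomal fractions. Extraction may thus have differed between the fractions and cannot be told apart from polysome association. In the core alpha ring, PSMA7 and PSMA4, which encode neighbouring subunits of the ring, were the members highest on polysomes. PSMA7 averaged 1773 ± 153 and 1529 ± 162 CPM in polysomal sgYBX1 and sgLUC RNA against 155 ± 8.43 and 159 ± 6.72 CPM in total RNA (SD, n = 4 each). Its polysomal level was higher by 3.49 ± 0.07 (log2 ± SE) in sgYBX1 and 3.28 ± 0.10 in sgLUC cells, at percentile 97.0 and 97.3 of all tested genes. PSMA7 was singled out after its values were seen. PSMA4 was higher by 2.83 ± 0.05 and 2.46 ± 0.09. PSMA5 had −0.98 ± 0.07 in sgYBX1 and −0.50 ± 0.09 in sgLUC cells, so that mRNAs for subunits of a single ring differed by 22.1-fold and 13.8-fold in their ratio of polysomal to total RNA (PSMA7 against PSMA5).

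Among the beta subunits the extremes were PSMB7 and PSMB10. PSMB7 encodes the trypsin-like catalytic subunit and PSMB10 the interferon-inducible subunit that takes its place in the immunoproteasome. PSMB7 had 6.85, 6.502, 4.22 and 3.98 CPM in polysomal sgYBX1 libraries and 10.5, 8.76, 8.94 and 10.97 CPM in polysomal sgLUC libraries, against 56.0 to 60.5 CPM in total sgYBX1 and 59.4 to 62.4 CPM in total sgLUC libraries. It was the lowest of the 34 genes (−3.44 ± 0.14 and −2.63 ± 0.10, percentiles 2.22 and 4.87). PSMB10 had 620, 522, 504 and 531 CPM in polysomal sgYBX1 libraries and 479, 547, 586 and 521 CPM in polysomal sgLUC libraries. In total RNA it averaged 77.5 ± 4.06 CPM with sgYBX1 and 77.3 ± 0.550 CPM with sgLUC. Its polysomal level was higher by 2.79 ± 0.07 and 2.80 ± 0.09. The ratio of PSMB10 to PSMB7 within a library, per coding kilobase, does not depend on how libraries are scaled. It was 107 ± 25.1 in polysomal sgYBX1 and 56.1 ± 10.3 in polysomal sgLUC RNA, against 1.36 ± 0.0395 in total sgYBX1 and 1.28 ± 0.0331 in total sgLUC RNA. Polysomal sgLUC replicates 1 and 4 had the lower ratios (46.4 and 48.2, against 63.3 and 66.5), and the lowest polysomal sgYBX1 library had 81.5. The remaining tested beta genes PSMB1, PSMB2, PSMB4, PSMB5 and PSMB6 were all higher on polysomes in both genotypes, by 0.42 to 1.52 in sgYBX1 and by 0.52 to 2.02 in sgLUC cells.

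In the ATPase ring PSMC1, PSMC3 and PSMC5 were higher on polysomes (2.56, 2.18 and 2.45 in sgYBX1 cells and 2.44, 2.27 and 2.42 in sgLUC cells), and PSMC2 and PSMC6 were lower (−0.92 and −0.82 in sgYBX1 cells, −0.51 and −0.33 in sgLUC cells). The lid ranged over 35.8-fold in sgYBX1 and 18.7-fold in sgLUC cells, and the ATPase ring over 11.1-fold and 7.75-fold. These ranges cover 8 lid and 6 ATPase genes, and a range grows with the number of genes. All tested genes also spread widely (SD of 1.82 and 1.71, given above), so the ranges are no result about the lid. PSMD13, PSMD7 and PSMD11, which are structural lid subunits, and PSMD14, the deubiquitinase of the lid, were higher, while PSMD3, PSMD6 and PSMD12, which also belong to the lid, were lower. PSMD7 had 3.15 ± 0.08 in sgYBX1 and 2.59 ± 0.13 in sgLUC cells, and PSMD6 had −2.01 ± 0.09 and −1.37 ± 0.09. Among the chosen genes, the 3 base subunits outside the ATPase ring are PSMD1, PSMD2 and PSMD4 (the last a ubiquitin receptor). With TMM they were higher in both genotypes, with PSMD1 at 3.54 ± 0.07 and 2.94 ± 0.15. Of the chaperones that assemble the base, PSMD5 and PSMD10 were lower (−2.26 and −1.59 in sgYBX1 cells, −2.05 and −1.37 in sgLUC cells), and PSMD9 was higher (0.58 and 0.88).

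Altogether 20 of the 34 genes passed the test as higher and 12 as lower in sgYBX1 cells, where 40.4% and 45.6% of all tested genes did, and 22 and 10 in sgLUC cells, where 38.9% and 42.3% did (edgeR quasi-likelihood test, Benjamini-Hochberg adjusted p under 0.05). The direction depends on scaling, because TMM factors were 0.667 to 0.798 in polysomal and 1.35 to 1.43 in total RNA. With TMM the median of all genes was −0.14 in sgYBX1 and −0.08 in sgLUC cells, and with library totals alone it was −1.16 and −0.95. With library totals 14 genes were higher and 19 lower in sgYBX1 cells (21.9% and 66.5% of all genes), and 15 and 15 in sgLUC cells (22.3% and 61.5%). Between the scalings the sign changed to below 0 for PSMA3, PSMA6, PSMB2, PSMC4 and PSMD2 in both genotypes, for PSMB5 and PSMD9 in sgYBX1 cells, and for PSMA2, PSMD8 and PSMD14 in sgLUC cells. Relative to the median of all genes, the median of the 34 genes was higher by 0.66 in sgYBX1 and 0.88 in sgLUC cells with TMM, and by 0.66 and 0.89 with library totals.

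**Figure D2:**
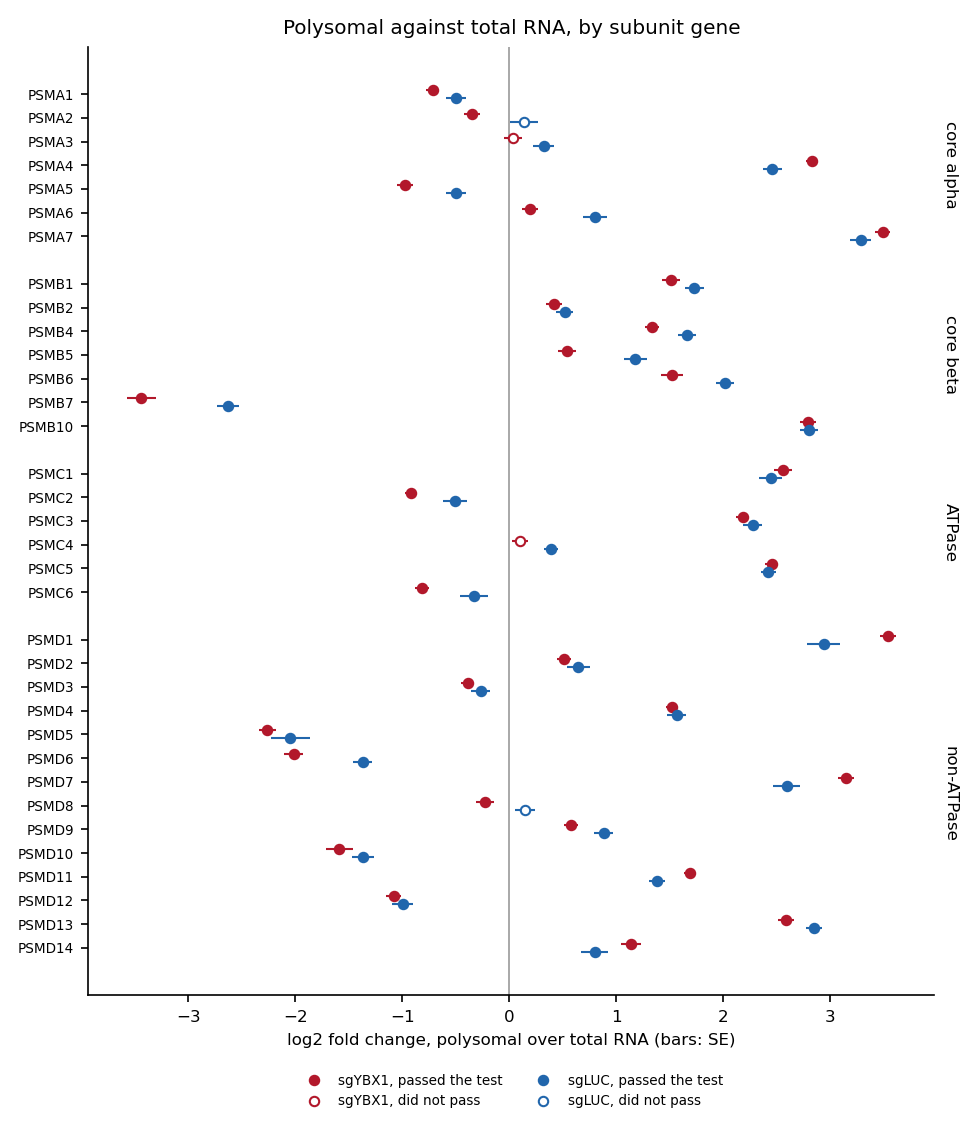
Log2 fold change of polysomal over total RNA for each tested subunit gene in sgYBX1 (upper point of each pair) and sgLUC cells, with SE (8 libraries per genotype, filled points passed the test). Within every class the genes run from below 0 to above 2, and PSMB7 at −3.44 and −2.63 lies lowest.

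In total RNA the comparison of sgYBX1 with sgLUC asked whether the abundance of these mRNAs changed. Almost no change was seen. None of the 34 genes passed the test as higher (7.62% of all genes did) and 2 passed as lower (9.15% of all genes did), and the 34 log2 fold changes ranged from −0.15 (PSMD10) to 0.06 (PSMD5). Without adjustment, 0 genes were higher and 6 lower at p under 0.05. Their median was −0.03 against 0.00278 over all genes, and their SD 0.0431 against 0.253. PSMA5, an alpha subunit (Entrez gene 5686, chromosome 1, 109399031 to 109426427 on the minus strand, GRCh38), had 89.9, 89.8, 87.6 and 89.4 CPM in total sgYBX1 libraries, against 101, 96.9, 95.3 and 98.1 CPM in total sgLUC libraries. The groups did not overlap (−0.12 ± 0.03, adjusted p = 0.0116). PSMD10, known as gankyrin (Entrez gene 5716, chromosome X, 108084207 to 108091618, minus strand), had 24.8, 27.0, 27.3 and 26.0 CPM in total sgYBX1 libraries, against 31.6, 26.3, 29.2 and 30.6 CPM in total sgLUC libraries, and here replicate 2 of sgLUC lay among the sgYBX1 values (−0.15 ± 0.05, adjusted p = 0.0409). With the spread estimated over all 16 libraries neither gene passed. Scaled to library totals, 1 of the 34 genes was lower and 0 higher, where 1450 genes of all were higher and 752 lower. PSMD10 also failed the test when any of 7 of the 8 libraries was left out, with total sgLUC replicate 2 as the exception.

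The comparison in polysomal RNA asked which mRNAs changed in the heavy fractions after YBX1 loss. Here some subunit genes changed in each direction, and the share that passed as higher was near that of all genes. Of the 34, 4 passed as higher (PSMD1, PSMD7, PSMA4 and PSMD11) where 12.5% of all genes did, and 12 passed as lower (PSMB7, PSMD6, PSMA6, PSMB5, PSMA5, PSMA2, PSMB6, PSMC6, PSMC2, PSMB4, PSMD8 and PSMD9) where 10.1% of all genes did. The remaining 18 did not pass. The median log2 fold change was −0.23, against −0.02 over all genes, and the extremes were PSMB7 (−0.85) and PSMD1 (0.63). The CPM of the 4 and 4 libraries did not overlap for 4 genes in the upward and 12 in the downward direction, against 12.4% and 10.8% of all genes. Scaled to library totals, 2 genes were higher (PSMD1 and PSMD7; 7.95% of all genes) and 21 lower (22.6%), as the median of all genes moved to −0.19. Without polysomal sgLUC replicates 1 and 4, chosen for removal after seeing the data, 3 genes were higher (PSMD1, PSMD7 and PSMA4; 10.9% of all genes) and 6 lower (PSMA5, PSMA6, PSMB5, PSMB6, PSMB7 and PSMD6; 6.44%). Leaving out polysomal sgLUC replicate 4 alone gave the same 3 and 6 genes. Of the other 7 calls, PSMD11 (0.29, against 0.30 with all libraries), PSMB4 (−0.31 against −0.36) and PSMD9 (−0.30 against −0.34) kept folds of nearly the same size. The folds of PSMA2 (−0.30 against −0.54), PSMC2 (−0.24 against −0.45), PSMC6 (−0.19 against −0.45) and PSMD8 (−0.22 against −0.35) were smaller without these libraries. Genes still called without both libraries also had smaller folds than those given below. They had 0.39 (PSMD1), 0.40 (PSMD7), 0.36 (PSMA4), −0.39 (PSMA5), −0.36 (PSMA6), −0.35 (PSMB5), −0.41 (PSMB6), −0.68 (PSMB7) and −0.55 (PSMD6).

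**Figure D3:**
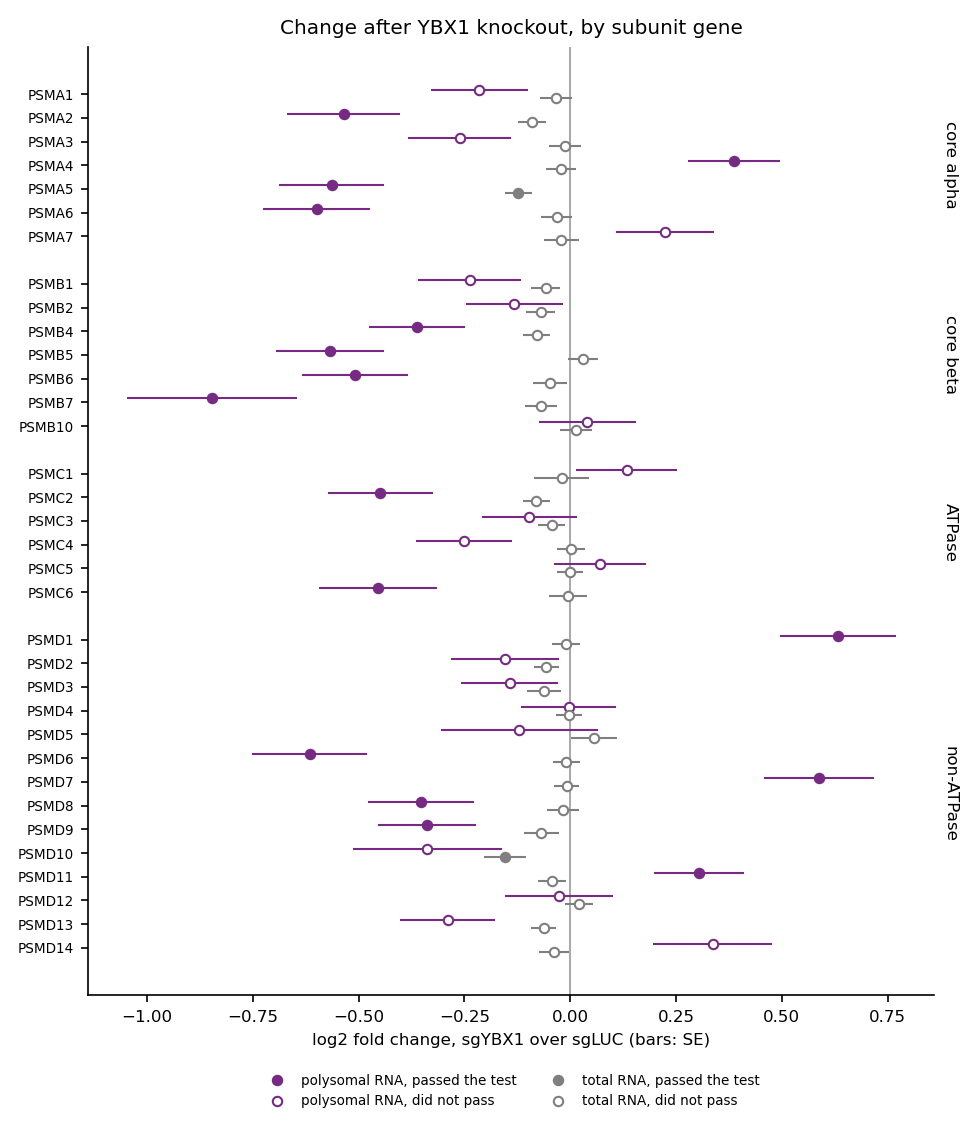
Log2 fold change of sgYBX1 over sgLUC for each tested subunit gene in polysomal (upper point of each pair) and total RNA, with SE (8 libraries per fraction, filled points passed the test). Total RNA values stay within −0.15 to 0.06, and polysomal values run from −0.85 to 0.63.

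In the core alpha ring, 1 of 7 tested genes rose and 3 fell on polysomes. PSMA6 (Entrez gene 5687, chromosome 14, 35278633 to 35317493) had 163, 138, 125 and 130 CPM in polysomal sgYBX1 libraries, against 249, 187, 178 and 236 CPM in polysomal sgLUC libraries. All sgYBX1 values lay below all sgLUC values, and the sgLUC values fell into a higher pair, replicates 1 and 4, and a lower pair. The change was −0.60 ± 0.13 (adjusted p = 0.00106), and −0.36 (adjusted p = 0.0312) without that higher pair. PSMA5 had 48.8, 52.0, 41.3 and 41.9 CPM with sgYBX1, against 74.7, 60.8, 62.4 and 76.0 CPM with sgLUC, again without overlap (−0.56 ± 0.12, adjusted p = 0.00143). PSMA2 (Entrez gene 5683, chromosome 7, 42916857 to 42932223, minus strand) had 83.3, 70.1, 76.6 and 63.4 CPM with sgYBX1, against 110, 79.5, 105 and 134 CPM with sgLUC. Here sgLUC replicate 2 lay among the sgYBX1 values (−0.54 ± 0.13, adjusted p = 0.00411), and the test was no longer passed without polysomal sgLUC replicate 4 or without both replicates 1 and 4 (−0.30, adjusted p = 0.103). PSMA4 (Entrez gene 5685, chromosome 15, 78540405 to 78552419) moved the other way. It had 1051, 1059, 1076 and 1051 CPM with sgYBX1, against 772, 779, 906 and 807 CPM with sgLUC (0.39 ± 0.11, adjusted p = 0.0105). PSMA7 stood at 0.22 ± 0.12 (adjusted p = 0.17).

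The constitutive core beta genes all had values below 0, and 4 of the 6 tested fell. These include the genes of all 3 catalytic subunits, PSMB5 (chymotrypsin-like, the main target of bortezomib), PSMB6 (caspase-like) and PSMB7 (trypsin-like). PSMB5 (Entrez gene 5693, chromosome 14, 23016543 to 23035230, minus strand) had 123, 90.8, 99.2 and 97.4 CPM in polysomal sgYBX1 libraries, against 184, 130, 138 and 162 CPM in polysomal sgLUC libraries (−0.57 ± 0.13, adjusted p = 0.00172). PSMB6 (Entrez gene 5694, chromosome 17, 4796144 to 4798503) had 216, 160, 141 and 162 CPM with sgYBX1, against 274, 230, 232 and 238 CPM with sgLUC (−0.51 ± 0.13, adjusted p = 0.00389). For both genes replicate 1 was the highest library of its group, and the groups did not overlap. Without polysomal sgLUC replicates 1 and 4, PSMB5 had −0.35 (adjusted p = 0.0404) and PSMB6 −0.41 (adjusted p = 0.0243). PSMB7 (Entrez gene 5695, chromosome 9, 124353466 to 124415444, minus strand), whose CPM are given above, fell the most (−0.85 ± 0.20, adjusted p = 0.00284), to 55.6% of the sgLUC level. PSMB4, a structural beta subunit, fell by 0.36 (adjusted p = 0.0216), and PSMB1 and PSMB2 had −0.24 and −0.13 (adjusted p = 0.169 and 0.441). The interferon-inducible PSMB10 (Entrez gene 5699, chromosome 16, 67934502 to 67937087, minus strand) had 0.04 ± 0.11 (adjusted p = 0.839, 95% interval −0.18 to 0.26), so a change of the size seen for PSMB5 lies outside its interval. The difference in change between PSMB10 and PSMB7 was not tested.

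**Figure D4:**
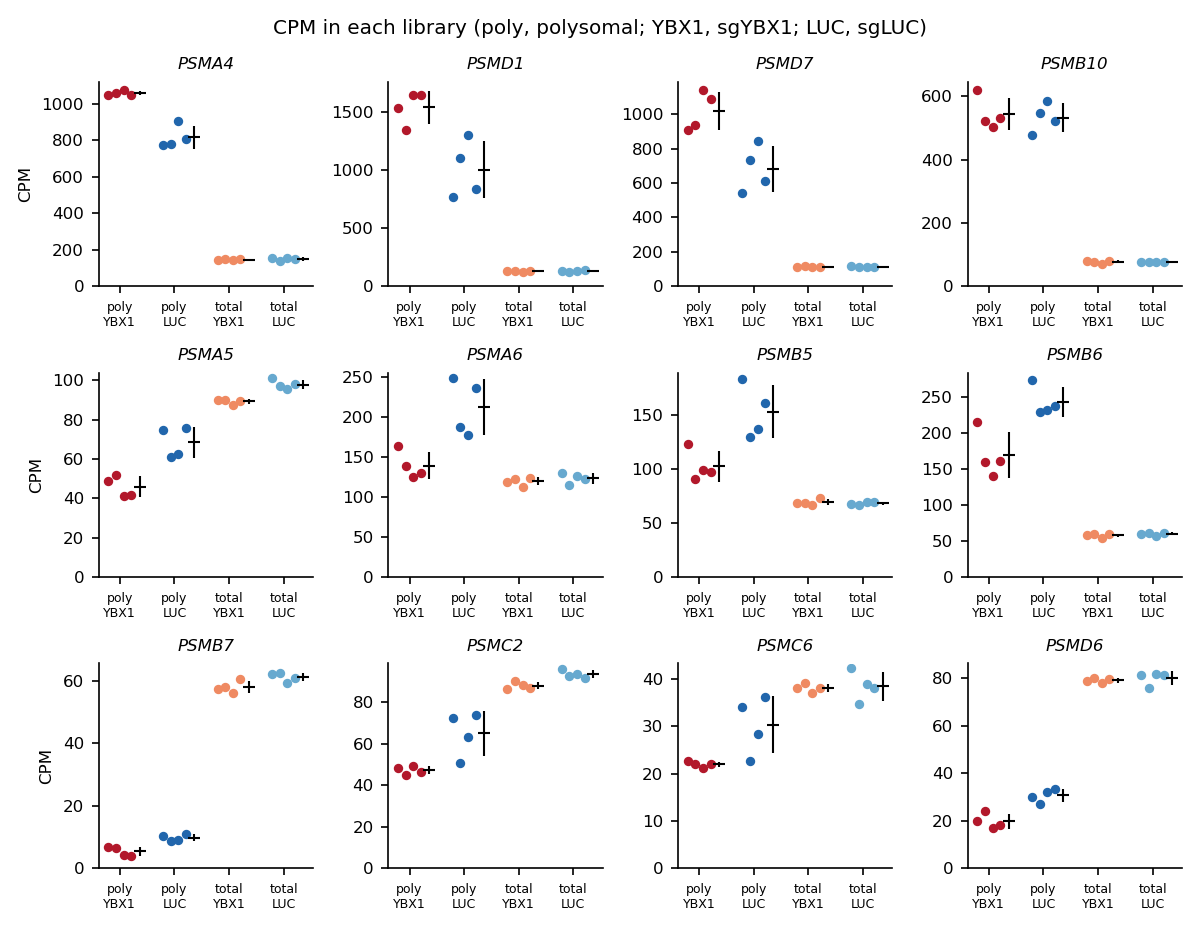
CPM of 12 subunit genes in each of the 16 libraries, from left to right polysomal sgYBX1, polysomal sgLUC, total sgYBX1 and total sgLUC, with mean and SD beside the points (axes start at 0 and differ between genes). For PSMA4, PSMD1 and PSMD7 the polysomal sgYBX1 points lie above the polysomal sgLUC points, for PSMB10 they overlap, and for the other 8 genes they lie below.

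Among the 6 ATPase genes, 2 fell and none rose. PSMC2 (Entrez gene 5701, chromosome 7, 103344254 to 103369395) had 48.4, 45.1, 49.4 and 46.4 CPM in polysomal sgYBX1 libraries, against 72.4, 50.6, 63.4 and 74.0 CPM in polysomal sgLUC libraries (−0.45 ± 0.12, adjusted p = 0.0094). PSMC6 (Entrez gene 5706, chromosome 14, 52707172 to 52728587) had 22.6, 22.0, 21.2 and 22.0 CPM with sgYBX1, against 34.01, 22.7, 28.4 and 36.3 CPM with sgLUC (−0.45 ± 0.14, adjusted p = 0.0186). In both the sgYBX1 libraries were tight and the sgLUC libraries ranged widely, with replicate 2 just above the sgYBX1 values. Without polysomal sgLUC replicates 1 and 4 these genes had −0.24 and −0.19 and did not pass (adjusted p = 0.19 and 0.394), and neither passed without replicate 4 alone. PSMC4 (Entrez gene 5704, chromosome 19, 39971005 to 39981441) had 124, 113, 93.7 and 105 CPM with sgYBX1, against 130, 131, 131 and 130 CPM with sgLUC, without overlap, and did not pass (−0.25 ± 0.11, adjusted p = 0.114). PSMC1, PSMC3 and PSMC5 had 0.13, −0.10 and 0.07.

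The non-ATPase genes held 3 of the 4 genes that rose. PSMD1, a large scaffold of the base (Entrez gene 5707, chromosome 2, 231056864 to 231172827), had 1537, 1344, 1649 and 1648 CPM in polysomal sgYBX1 libraries, against 772, 1107, 1302 and 837 CPM in polysomal sgLUC libraries. The 2 groups came close, at 1344 and 1302 CPM, and the sgLUC libraries 1 and 4 were again apart, here as the lowest. PSMD1 rose by 0.63 ± 0.14 (adjusted p = 0.00132), and by 0.39 (adjusted p = 0.0277) without them. PSMD7, the inactive partner of the deubiquitinase PSMD14 in the lid (Entrez gene 5713, chromosome 16, 74296775 to 74306288), had 908, 939, 1138 and 1087 CPM with sgYBX1, against 542, 733, 845 and 610 CPM with sgLUC (0.59 ± 0.13, adjusted p = 0.00148). PSMD6, another lid subunit (Entrez gene 9861, chromosome 3, 64010549 to 64024010, minus strand), had 19.96, 24.1, 16.96 and 18.4 CPM with sgYBX1, against 29.95, 27.3, 32.02 and 33.6 CPM with sgLUC (−0.62 ± 0.14, adjusted p = 0.00148). For PSMD6 libraries 1 and 4 did not stand apart, and without them the change was −0.55 (adjusted p = 0.00914). The lid thus held genes that changed in opposite directions. The within-library ratio of PSMD7 to PSMD6, per coding kilobase, was 54.6, 46.8, 80.5 and 70.9 in polysomal sgYBX1 libraries, against 21.7, 32.2, 31.7 and 21.8 in polysomal sgLUC libraries, while in total RNA it averaged 1.71 ± 0.0260 with sgYBX1 and 1.71 ± 0.0504 with sgLUC. The ratio of PSMA4 to PSMA5 was 21.5 ± 2.53 in polysomal sgYBX1 and 11.2 ± 1.83 in polysomal sgLUC RNA, against 1.52 ± 0.0310 and 1.42 ± 0.0913 in total sgYBX1 and sgLUC RNA. For both ratios polysomal sgLUC replicates 1 and 4 were the lower ones, for PSMA4 to PSMA5 at 9.54 and 9.81 against 11.8 and 13.4. These 2 pairs were chosen for this display after their values were seen, and no test is given.

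PSMD11, a lid subunit, had 267, 249, 259 and 266 CPM in polysomal sgYBX1 libraries, against 212, 221, 214 and 202 CPM in polysomal sgLUC libraries (0.30 ± 0.11, adjusted p = 0.0393). It was named as one of few genes that rose, after its values were seen. PSMD14 had 0.34 ± 0.14 (adjusted p = 0.084), and PSMD13 −0.29 ± 0.11 (adjusted p = 0.0633). PSMD8 fell by 0.35 (adjusted p = 0.0425). Of the base chaperones, PSMD9 (Entrez gene 5715, chromosome 12, 121888731 to 121918297) had 49.5, 44.3, 45.8 and 43.2 CPM with sgYBX1, against 60.0, 62.7, 52.3 and 57.6 CPM with sgLUC (−0.34 ± 0.12, adjusted p = 0.0359). PSMD10 had 11.2, 9.82, 7.19 and 7.19 CPM with sgYBX1, against 12.2, 11.7, 11.1 and 10.1 CPM with sgLUC, with an overlap and no call (−0.34 ± 0.18, adjusted p = 0.174). PSMD5 (Entrez gene 5711, chromosome 9, 120815496 to 120842984, minus strand) had 9.60, 10.8, 10.2 and 12.1 CPM with sgYBX1, against 15.98, 9.25, 8.33 and 13.1 CPM with sgLUC (−0.12 ± 0.19, adjusted p = 0.694). The calls of PSMD8, PSMD9 and PSMD11 were near the threshold and each was lost in 7 or 8 of 15 alternatives.

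**Figure D5:**
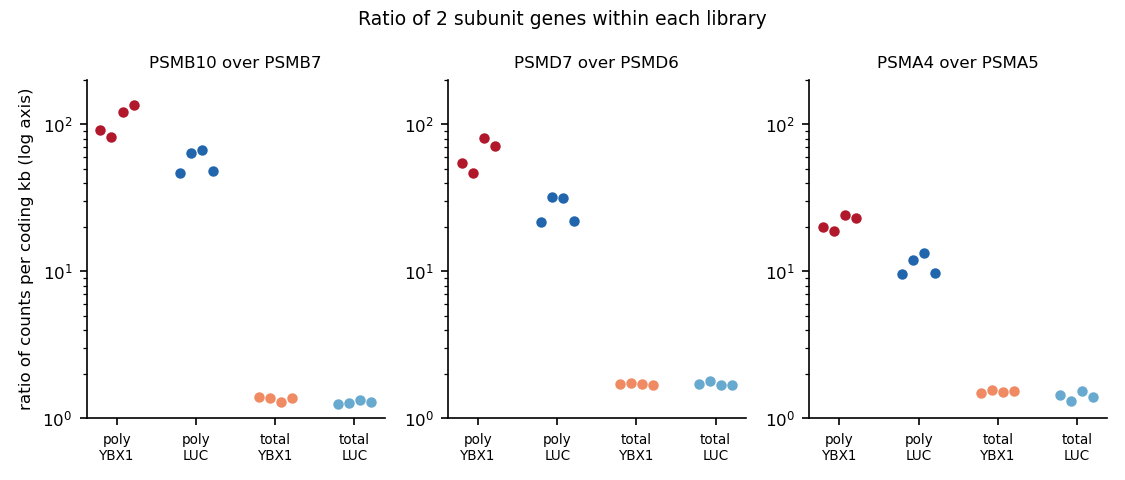
Ratio of counts per coding kilobase of 2 subunit genes within each library, on a log axis shared by the 3 panels, for PSMB10 over PSMB7, PSMD7 over PSMD6 and PSMA4 over PSMA5. Ratios in total RNA lie between 1.253 and 1.78, in polysomal sgLUC RNA between 9.54 and 66.5, and in polysomal sgYBX1 RNA between 18.8 and 135.

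Class sums were set beside the counts of genes. The core alpha sum was 3263 ± 143 CPM in polysomal sgYBX1 against 2939 ± 242 CPM in polysomal sgLUC RNA, although 5 of its 7 tested genes had values below 0. PSMA7 and PSMA4 made up 86.8% of that sum with sgYBX1 and 79.8% with sgLUC, against 37.2% and 36.7% in total RNA. The core beta sum was 1691 ± 200 against 1992 ± 65.5 CPM, the ATPase sum 1414 ± 73.2 against 1476 ± 78.0 CPM, and the non-ATPase sum 4682 ± 247 against 4011 ± 342 CPM. With TMM scaling the core alpha and non-ATPase sums were thus higher and the core beta and ATPase sums lower with sgYBX1. As a share of all counts, core alpha did not differ in that way, with 0.222% ± 0.00265 in polysomal sgYBX1 and 0.223% ± 0.0221 in polysomal sgLUC libraries. Core beta took 0.115% ± 0.0132 and 0.151% ± 0.0106, ATPase genes 0.0963% ± 0.00396 and 0.112% ± 0.00533, and non-ATPase genes 0.319% ± 0.00611 and 0.303% ± 0.00956. Together the 37 genes took 0.752% ± 0.0201 of polysomal sgYBX1 and 0.790% ± 0.0249 of polysomal sgLUC libraries, and 0.473% ± 0.00802 and 0.474% ± 0.00254 of total sgYBX1 and sgLUC libraries. No test was run on these sums.

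The last comparison asked whether the polysomal change differed from the change in total RNA, in a single model over 16 libraries. It passed for 12 of the 34 genes. The polysomal change was the higher in 4 (PSMD1, PSMD7, PSMA4 and PSMD11, where 9.84% of all genes passed in this direction) and the lower in 8 (PSMB7, PSMD6, PSMB5, PSMA6, PSMB6, PSMC6, PSMA5 and PSMC2, where 6.89% did). The count in the higher direction was near the share of all genes. The differences with the smallest adjusted p were those of PSMD6 (−0.61 ± 0.13, adjusted p = 0.0028), PSMB7 (−0.77 ± 0.18, adjusted p = 0.00483), PSMB5 (−0.60 ± 0.14, adjusted p = 0.00548) and PSMA4 (0.41 ± 0.10, adjusted p = 0.0062). These values share all their libraries with the comparisons above and are no independent evidence. The model shares 1 spread among the 4 groups, although replicates varied more in polysomal than in total RNA, so its SE may be too small. For PSMA4 the SE was 0.10 here and 0.11 in polysomal RNA alone. With limma voom and weights per group, 5 of the 34 genes were higher and 10 lower, where 1311 genes of all were higher and 822 lower. Scaled to library totals, 2 were higher and 18 lower, where 677 genes of all were higher and 2694 lower. The genes that rose on polysomes after YBX1 loss had log2 values of polysomal against total RNA in sgLUC cells of 2.94 (PSMD1), 2.59 (PSMD7), 2.46 (PSMA4) and 1.38 (PSMD11), and those of PSMB7 and PSMD6, which fell the most, were −2.63 and −1.37. The comparisons use the same polysomal sgLUC libraries, so the values are only set side by side. PSMB6 and PSMB4, at 2.02 and 1.66, fell as well.

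Genes of the pathway outside the rule were counted from 5 lists. Of 36 genes listed, 35 were tested, and in polysomal RNA 4 were higher and 1 lower (12.5% and 10.1% of all genes were), and in total RNA 0 were higher and 2 lower (7.62% and 9.15% of all genes). The shares are near or below those of all genes, so the counts are no result about the lists. None of 7 other lid, base and regulator genes and none of 6 assembly factors passed in polysomal RNA (median −0.16 and −0.12). UCHL5, a deubiquitinase bound to the 19S cap, had 49.7, 58.2, 53.1 and 51.0 CPM in polysomal sgYBX1 libraries, against 40.8, 34.9, 34.3 and 33.1 CPM in polysomal sgLUC libraries (0.58 ± 0.12, adjusted p = 0.000912). The list of transcriptional control held 4 genes, of which NFE2L2 and NFE2L1 rose, where 12.5% of all genes did. NFE2L2, the factor of the oxidative stress response, had 104, 115, 120 and 134 CPM with sgYBX1, against 69.8, 75.5, 80.1 and 82.8 CPM with sgLUC (0.63 ± 0.11, adjusted p = 0.000225), with −0.01 ± 0.03 in total RNA. NFE2L1, the factor that drives proteasome genes, had 108, 120, 126 and 120 CPM with sgYBX1, against 97.5, 107, 95.5 and 81.8 CPM with sgLUC (0.32 ± 0.11, adjusted p = 0.0422), a call that was lost in 7 of 15 alternatives. Among 12 genes of ubiquitin supply and delivery, UBB, which encodes a chain of ubiquitin units, fell. UBB had 220, 191, 180 and 174 CPM in polysomal sgYBX1 libraries, against 377, 317, 315 and 442 CPM in polysomal sgLUC libraries (−0.91 ± 0.13, adjusted p = 1.6e-05), and its value is uncertain because its repeats are near-identical. In total RNA PSME1, a subunit of the 11S activator, and RPS27A, a ubiquitin fusion with a ribosomal protein, fell by 0.13 and 0.17 (adjusted p = 0.0209 and 0.00214).

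The promoter matches shown above were set beside these calls. The antioxidant response element letters were found for 1 of the 4 genes that rose on polysomes (PSMA4), 1 of 10 matched genes that fell (PSMD9) and 4 of 15 matched genes that did not pass. None of these 6 genes passed the test in total RNA. The CCAAT box was found for 2 of 4 genes that rose (PSMA4 and PSMD7), 6 of 10 that fell and 6 of 15 that did not pass, so it was present in both directions. The PSMA4 matches of both kinds lie inside its annotated gene span, before another RefSeq start.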

How the data were processed

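The authors deposited raw read counts per gene for 16 libraries (18991 genes, 1544 without counts), made per the submitters' notes with Trimmomatic 0.36.5, STAR 2.7.8a and featureCounts 2.0.1 on GRCh38, with DESeq2 1.30.0 also named. The annotation and strand setting are not given in the sources used here. Symbols in that table do not match its Entrez identifiers, so the identifiers were the key, and symbols came from the authors' table for total RNA and RefSeq. The authors' fold changes and p-values from DESeq2 were not used.

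Counts were filtered with filterByExpr, scaled with TMM and tested two-sided with edgeR 4.0.16 quasi-likelihood F tests in R 4.3.3, in 8 libraries per comparison and 16 for the difference between fractions. P-values were adjusted by Benjamini-Hochberg over all genes tested (11742 to 12517), and genes were called at an adjusted p under 0.05. The 95% interval is a normal approximation from the SE. DESeq2 1.42.0, limma 3.58.1 voom, scaling to library totals, DESeq2 size factors, no filter, a replicate block and leaving out each library were alternatives. The procedure was tested on simulated data. Coding lengths and positions are from GENCODE 29, 1 principal transcript per gene. Figures used matplotlib 3.10.9.

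The subunit genes and lists were chosen with earlier results of these data known. Genes shown per library were up to 3 with the smallest adjusted p in polysomal RNA in each of core alpha, constitutive core beta, interferon-inducible or tissue-specific core beta, ATPase, non-ATPase and base chaperones, those called in total RNA, the 4 with the smallest adjusted p for the difference, PSMB10 beside PSMB7, and pathway genes called in either fraction. PSMD11 was added after its values were seen. The libraries of a group are replicates of 1 line, so p-values measure the spread between these samples. Some genes of the marker and pathway lists are counted but not reported by name here.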

Additional observations from a re-analysis of the deposited data

Results flagged for a closer look

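In 4 of 136 gene and group combinations, 1 of the 4 libraries stood apart from the other 3, where chance alone flags about 1 in 20. PSMA7 had 1546 CPM in polysomal sgYBX1 replicate 2 and 1816 to 1865 CPM in the others. PSMB1 had 495 CPM in polysomal sgYBX1 replicate 1 and 368 to 381 CPM in the others. PSMD6 had 76.1 CPM in total sgLUC replicate 2 and 81.5 to 81.7 CPM in the others. PSMD14 had 68.2 CPM in total sgYBX1 replicate 3 and 71.3 to 71.5 CPM in the others.

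The change after YBX1 knockout differed between polysomal and total RNA for 12 genes (edgeR interaction term, adjusted p from 0.0028 to 0.0486). That model shares 1 spread among the 4 groups. The polysomal minus the total log2 change was 0.64 for PSMD1, 0.60 for PSMD7, 0.41 for PSMA4 and 0.35 for PSMD11. It was −0.77 for PSMB7, −0.61 for PSMD6, −0.60 for PSMB5, −0.57 for PSMA6, −0.46 for PSMB6, −0.45 for PSMC6, −0.44 for PSMA5 and −0.37 for PSMC2. Those of PSMC6 and PSMC2 had an adjusted p of 0.05 or more in 15 and 18 of 23 alternatives.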

How the results depend on the processing

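Library totals in place of TMM shift all genes of a comparison nearly alike, and moved the median of the 34 genes to −0.000728 in total RNA (−0.03 with TMM), −0.40 in polysomal RNA (−0.23), −0.38 for the difference (−0.18), −0.50 for polysomal against total RNA in sgYBX1 cells (0.53) and −0.062 in sgLUC cells (0.80). Called genes numbered 1 in total RNA (2 with TMM) and 20 for the difference (12). Between fractions the sign then changed in sgYBX1 cells for PSMA3 (−0.99), PSMA6 (−0.83), PSMB2 (−0.61), PSMB5 (−0.49), PSMC4 (−0.93), PSMD2 (−0.52) and PSMD9 (−0.45), and in sgLUC cells for PSMA2 (−0.72), PSMA3 (−0.54), PSMA6 (−0.058), PSMB2 (−0.35), PSMC4 (−0.48), PSMD2 (−0.22), PSMD8 (−0.72) and PSMD14 (−0.066). Medians between fractions were 0.63 in sgYBX1 and 0.86 in sgLUC cells with DESeq2 size factors or the DESeq2 test, 0.42 and 0.74 without the filter, and 0.65 in sgLUC cells without polysomal sgLUC replicates 1 and 4, which gave 9 called genes in polysomal RNA. The fit of 16 libraries called 0 of the 34 genes in total RNA (58 higher and 78 lower of all genes, against 931 and 1117) and 24 in polysomal RNA (2154 and 2485 of all genes, against 1466 and 1185). That fit shares 1 spread among the 4 groups, as does the model for the difference, while replicates varied more in polysomal than in total RNA. The cause of these shifts was not tested. Leaving out 1 library gave 1 to 3 calls in total RNA, 9 to 17 in polysomal RNA (the 9 without polysomal sgLUC replicate 4) and 9 to 17 for the difference, and medians of −0.05 to −0.02, −0.28 to −0.17 and −0.26 to −0.11. Of all genes, 1341 to 2897 then passed in total RNA, 1705 to 2868 in polysomal RNA and 1511 to 2718 for the difference. Between fractions, leaving out 1 library gave 31 or 32 calls, with medians of 0.44 to 0.58 in sgYBX1 and 0.67 to 0.84 in sgLUC cells. Of all 12181 to 12362 genes tested there, 10235 to 10578 passed in sgYBX1 and 9443 to 10042 in sgLUC cells, so most genes passed. Not all same-numbered samples deviated together (correlations −0.27 to 0.50, and 8 of 16 had their own number as best partner), so the numbers were not taken as pairs, though a shared culture cannot be told from these values. The replicate block gave 1 call in total RNA (2036 of all genes), 16 in polysomal RNA (2557) and 11 for the difference (1993). Of genes with 1 to 39 counts in a library, 57.9% to 66.4% had an even count, whose cause was not tested.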

Other observations

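The genes of the proteasome differed in transcript features, which were set beside the changes as a description. Over the 34 tested genes, the rank correlation (Spearman) of coding length with the polysomal change after YBX1 knockout was 0.37, against 0.26 over all 11691 tested genes with an annotated length, and that of the 5′ UTR length was 0.41 against 0.01. GC content of the transcript and the log2 fold change of polysomal over total RNA had 0.41 in sgYBX1 cells (0.26 over all genes) and 0.44 in sgLUC cells (0.31 over all genes). Coding length and the change in total RNA, where the 34 genes hardly changed, had 0.43 (0.08 over all genes). These are the largest among many pairs of feature and comparison that were computed. No test is given, and they are no result about proteasome genes. The points share their libraries and their subunits' complex, and the annotated transcript may not be the one expressed in MOLM13.

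PSMC1 was low among the ATPases in total RNA, with 11.9 ± 1.04 CPM with sgYBX1 and 12.1 ± 0.467 CPM with sgLUC, and had 71.1 ± 6.24 and 65.3 ± 8.30 CPM on polysomes (SD, n = 4 each). It has 13 named pseudogenes, and whether reads were lost to them was not tested.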
